A study of Homo sapiens with 3 samples.

Results

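The genes described here are those of the CDKN2A locus on the short arm of chromosome 9 and of the G1 checkpoint that it controls. They were chosen by symbol as CDKN2A, CDKN2B, MTAP, CCND1, CDK4, CDK6, RB1, CDKN1A and MDM2, which makes 9 genes beside the 18856 genes listed in at least 1 of the libraries. Of these 9 genes, 7 had a value in every library, and CDKN2A and CDKN2B had no row in any of them. The study tested LIEA, a Low-Input, Equal-Amplification library construction for Ion Torrent semiconductor sequencing, beside Smart-seq2 and with Illumina bulk mRNA-seq as the reference. Smart-seq2 copies whole mRNAs from the poly(A) tail and amplifies the cDNA before the library is made. The bulk libraries and the biological replicate of LIEA of HBE that the study reported are not among the libraries analysed here. The RNA came from HBE, which are cultured human bronchial epithelial cells, and from A549, a lung adenocarcinoma cell line, neither with any treatment named in the labels. Each library was made from about 10 pg of polyA+ mRNA taken from extracted RNA, so it represents a pool of cells and not a cell.

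There were 3 groups with 1 library each: LIEA of HBE with 4605855 mapped reads, LIEA of A549 with 4154060 and Smart-seq2 of HBE with 9845150. With 1 library per group no difference has a replicate check, and no test was possible. The intervals below are exact 95% intervals for the counting of reads. They hold counting error and nothing else, since PCR copies without molecular identifiers do not count molecules one by one. The line and the library cannot be told apart in the comparison of A549 with HBE by LIEA, nor can the construction method and the sequencer in that of LIEA with Smart-seq2. In such pools, fewer cells that express a gene and less RNA of it per cell cannot be told apart either. How the HBE line was established is not given in the sources used here.

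The cell types were checked by their markers. The simple epithelial keratins KRT8 and KRT18 were high in each library, with log2 rpkM of at least 8.98 for KRT8 and at least 9.54 for KRT18. Of 6 epithelial markers, 3 were at least 2-fold higher and 2 at least 2-fold lower in A549 than in HBE by LIEA, with a median log2 difference of 0.55. The higher ones were the keratins KRT8 (2.97), KRT18 (2.53) and KRT7 (1.56). The lower ones were EPCAM, with 226 reads in HBE and 26 in A549 by LIEA (-2.97), and CDH1 (-1.56). The labels call A549 alveolar basal epithelial cells, but the basal airway keratins were near 0 there. KRT5 had 5854 reads in HBE by LIEA, 9219 in HBE by Smart-seq2 and 18 in A549. KRT17 had 7954, 87997 and 13 reads in the same order, and KRT14 had 11 and 103 reads in HBE and no row in A549. TP63, a transcription factor of basal cells, was lower but present, with 706 and 691 reads in HBE and 90 in A549, where its level was 4.41 rpkM. All 4 basal markers were at least 2-fold lower in A549, with a median of -5.51. Of 7 markers of leukocytes, endothelium and fibroblasts, CD3E and COL1A2 had no row, PTPRC and COL3A1 had at most 3 reads, and CD14, PECAM1 and COL1A1 had between 9 and 175 reads.

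CDKN2A encodes p16INK4A, which binds CDK4 and CDK6 and blocks their activation by D-type cyclins, and p14ARF, which restrains the p53 ubiquitin ligase MDM2. Active CDK4 and CDK6 phosphorylate the retinoblastoma protein RB1, which then releases the E2F factors that drive genes of DNA replication. CDKN2B encodes the related inhibitor p15INK4B, and MTAP, the neighbouring gene, encodes the methylthioadenosine phosphorylase of methionine salvage. Many lung cancers lose this locus, and A549 is known to lack CDKN2A.

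CDKN2A lies at chr9:21967751-21995300 on the minus strand of GRCh37, and CDKN2B at chr9:22002902-22009304 on the same strand. Neither had a row in A549, and neither had one in LIEA or Smart-seq2 of HBE. The missing row in A549 thus did not set this line apart from HBE. That the missing rows stand for 0 reads was not established here. If they do, a count of 0 would allow up to 3 reads. On the longest annotated transcripts of 1052 nt and 3853 nt, 3 reads would be 0.619 rpkM for CDKN2A and 0.169 rpkM for CDKN2B in LIEA of HBE. In A549 the same limit would be 0.686 and 0.187 rpkM, and in Smart-seq2 of HBE 0.29 and 0.0791 rpkM. Since CDKN2A had no value, genes with a pattern like it could not be named.

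Reads from parts of these inhibitors fit both genes. Of the 42-nt words of the longest CDKN2A transcript, 42 nt being the length above which Ion Torrent reads were kept, 4.15% occur in CDKN2B and 1.1% of those of CDKN2B in CDKN2A. A further 20.9% of the CDKN2A words occur on the opposite strand in CDKN2B-AS1, the antisense long noncoding RNA of the locus. How reads that match several genes were assigned, and whether strand was used in counting, is not given in the sources used here.

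MTAP, at chr9:21802635-21937650, ends 30.1 kb from CDKN2A and was the only protein-coding gene of the locus with a value. It had 2 reads in HBE by LIEA, 43 in A549 by LIEA and 24 in HBE by Smart-seq2. These are 0.0882 rpkM (0.0107 to 0.319), 2.1 rpkM (1.52 to 2.83) and 0.495 rpkM (0.317 to 0.737). A549 was the highest of the libraries, and its interval did not overlap those of the HBE libraries, which met at their ends. The log2 difference between A549 and HBE by LIEA was 4.58 (2.63 to 7.67), a ratio of 23.8 that rests on 2 reads in HBE. The level was low in every library. In A549 MTAP stood at the 15.1th percentile of the genes with at least 10 reads. Of the 42-nt words of the longest MTAP transcript, 8.09% occur in other genes on the same strand and 3.13% on the opposite strand. The positions of the reads along MTAP were not analysed here. How far the known loss in A549 extends, and whether these reads come from MTAP itself, was not tested.

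CDKN2B-AS1, also called ANRIL, spans all of CDKN2B and overlaps 593 exon bases of CDKN2A on the other strand. It had 27 reads in HBE by LIEA, 26 in A549 by LIEA and 11 in HBE by Smart-seq2, with log2 rpkM of 0.61, 0.71 and -1.78. The A549 and HBE levels by LIEA differed by 0.09 on the log2 scale (-0.74 to 0.93), which is within counting error. The gene spans 134 kb and extends beyond CDKN2A, and the positions of its reads were not analysed here. Whether the A549 reads come from the part that overlaps CDKN2A or CDKN2B, or from this gene at all, was not tested.

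The genes around the locus had reads in A549 as in HBE. Within 10 Mb of CDKN2A, 43 genes were listed in some library, of which 37 were listed in A549, 31 in LIEA of HBE and 35 in Smart-seq2 of HBE. Between A549 and HBE by LIEA, 29 of them could be compared, as they had at least 10 reads in 1 of the libraries. At least 2-fold higher in A549 were 10, at least 2-fold lower were 2, and 17 lay between. Of all 13596 genes compared in this way, 20.4% were at least 2-fold higher and 20.9% at least 2-fold lower. The median difference of the neighbours was 0.32, against -0.13 for all genes.

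On the MTAP side of CDKN2A, MIR31HG, the host transcript of a microRNA, had 5 reads in LIEA of HBE, 58 in A549 and 7 in Smart-seq2, a difference of 3.68 (2.38 to 5.36) by LIEA. KLHL9, an adaptor of a ubiquitin ligase, had 136, 153 and 273 reads, and its difference of 0.32 (-0.02 to 0.66) was within counting error. FOCAD, farther out, had 269, 258 and 554 reads, a difference of 0.09 (-0.16 to 0.34). MLLT3, a subunit of a transcription elongation complex, had 29, 194 and 20 reads and differed by 2.89 (2.32 to 3.51). None of these genes was at least 2-fold lower in A549, but ACER2, farther out on the same side, was (-1.23, -1.96 to -0.54). On the other side, DMRTA1 had at most 2 reads in any library. TUSC1, a small intronless gene, had no row in either HBE library and 51 reads in A549. With LIEA of HBE set at a floor of 3 reads, its log2 difference was 4.24. If the missing row stands for 0 reads, the lower limit by counting was 3.89. MOB3B, in the direction of the centromere, was lower in A549, with 142 reads in HBE by LIEA, 302 in HBE by Smart-seq2 and 14 in A549, a difference of -3.19 (-4.10 to -2.40).

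Elsewhere within 10 Mb, PLIN2, a coat protein of lipid droplets, had no row in HBE by LIEA, 1 read by Smart-seq2 and 116 reads in A549. With LIEA of HBE set at a floor of 3 reads, its log2 difference was 5.42. If the missing row stands for 0 reads, the lower limit by counting was 5.10. BNC2 and LINGO2 had rows in A549 alone, with 30 and 12 reads. LURAP1L, with 8, 78 and 1 reads in LIEA of HBE, A549 and Smart-seq2, differed by 3.43 (2.39 to 4.70), MPDZ by 1.36 (1.02 to 1.72) and TTC39B by 1.25 (0.29 to 2.28). ACER2, a ceramidase of the Golgi, was the other gene that was lower in A549, by LIEA with 65 reads in HBE and 25 in A549 (-1.23, -1.96 to -0.54). The ribosomal protein gene RPS6 was the highest of the region, with log2 rpkM of 10.43, 10.31 and 10.42. Between 2-fold lower and 2-fold higher were also NFIB (0.16), ZDHHC21 (-0.37), SNAPC3 (-0.22), PSIP1 (0.12), CNTLN (-0.94), SH3GL2 (-0.71), RRAGA (0.32), HAUS6 (-0.10), DENND4C (-0.04), CAAP1 (0.90), PLAA (0.53), IFT74 (30 reads in HBE and 54 in A549, just under 2-fold) and C9orf72 (-0.68). CCDC171 had 7, 2 and 12 reads in LIEA of HBE, A549 and Smart-seq2, too few by LIEA for the comparison.

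**Figure D1:**
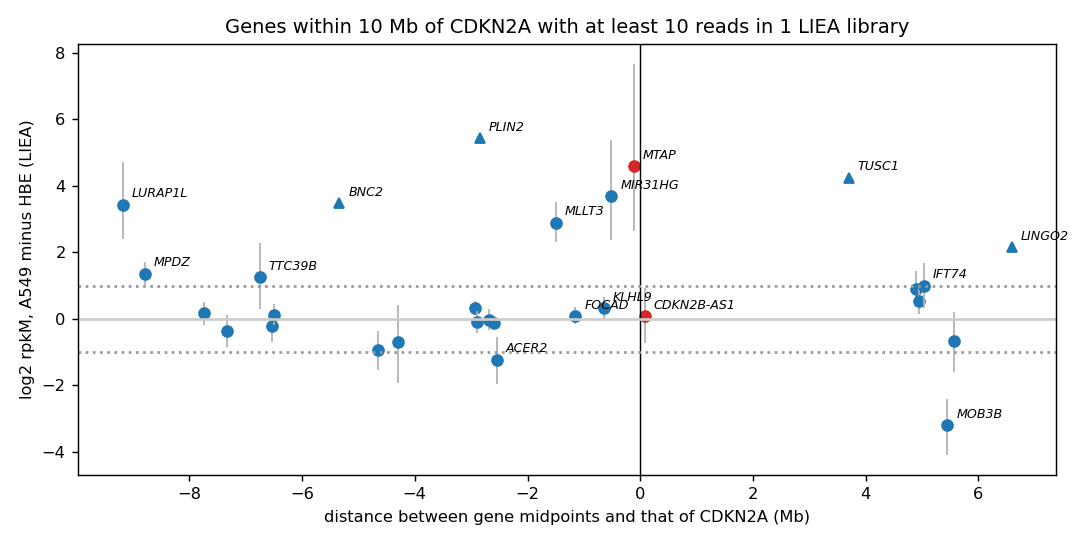
Difference of log2 rpkM between A549 and HBE by LIEA (vertical axis) for the 29 compared genes within 10 Mb of CDKN2A, by the distance of their midpoints from that of CDKN2A in Mb (horizontal axis). Grey bars are 95% counting intervals, triangles are genes without a row in LIEA of HBE, set against a floor of 3 reads, red marks the genes next to or over the locus, and dotted lines mark 2-fold. MTAP at 4.58 and CDKN2B-AS1 at 0.09 flank the position of CDKN2A, and 10 genes lie above the upper line.

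CCND1, cyclin D1, is the regulatory partner of CDK4 and CDK6 and lies at chr11:69455924-69469242 on the plus strand. It had 2351 reads in HBE by LIEA, 1306 in A549 by LIEA and 6879 in HBE by Smart-seq2, which are 119, 73.3 and 163 rpkM. A549 was below both HBE libraries, and in each library CCND1 stood at or above the 93rd percentile. By LIEA, A549 and HBE differed by -0.70 on the log2 scale (-0.80 to -0.60), less than 2-fold.

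The other D-type cyclins differed more between the lines. CCND3 had 350 reads in HBE by LIEA, 829 in HBE by Smart-seq2 and 2078 in A549, and its log2 rpkM was 4.88, 5.03 and 7.60. CCND2 had 925 and 1639 reads in the HBE libraries, with log2 rpkM of 4.94 and 4.67, and no row in A549. Set at a floor of 3 reads in A549, its log2 difference by LIEA was -8.12. If the missing row stands for 0 reads, the upper limit by counting was -7.82. The HBE libraries lay close together for both genes, with A549 far above them for CCND3 and without a row for CCND2. The summed rpkM of the D-type cyclins was 179 in HBE by LIEA, 221 in HBE by Smart-seq2 and 267 in A549. CCND1 made up 66.4% and 73.7% of this sum in the HBE libraries and 27.5% in A549, where CCND3 made up 72.5%. The ratio of CCND1 to CCND3 in rpkM was 4.05 (3.62 to 4.54) and 5 (4.65 to 5.38) in HBE and 0.379 (0.353 to 0.406) in A549.

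CDK4, at chr12:58141510-58149796 on the minus strand, was the highest of the members in LIEA of HBE. Its reads were 1441 in HBE by LIEA, 775 in A549 by LIEA and 1804 in HBE by Smart-seq2, which are 156, 93.2 and 91.5 rpkM. A549 lay next to the Smart-seq2 library of HBE, and the LIEA library of HBE stood above both. By LIEA the difference between A549 and HBE was -0.75 (-0.87 to -0.62). Of the 42-nt words of CDK4, 52.5% occur on the opposite strand in other genes, foremost its overlapping neighbour TSPAN31, which had 57, 73 and 274 reads in the same order of libraries. Without strand, reads from the shared part cannot be assigned to either gene.

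CDK6, the other kinase of the D-type cyclins, lies at chr7:92234235-92465887 on the minus strand and was the member with the clearest difference between the lines. It had 925 reads in HBE by LIEA, 2028 in HBE by Smart-seq2 and 153 in A549, which are 17.1 rpkM (log2 4.10), 17.6 rpkM (4.14) and 3.14 rpkM (1.65). The HBE libraries had almost the same level by both methods, and A549 lay far below them. By LIEA, CDK6 was 5.45-fold lower in A549, a log2 difference of -2.45 (-2.70 to -2.20). CDK6 and MTAP were the only members with a difference of at least 2-fold between the lines by LIEA, which is 1 of 7 lower and 1 of 7 higher, beside 20.9% and 20.4% of all genes. CDK4 exceeded CDK6 in every library, by a factor of 9.12 (8.39 to 9.91) in LIEA of HBE, 5.21 (4.88 to 5.55) in Smart-seq2 of HBE and 29.6 (24.9 to 35.5) in A549. CDK6 made up 9.88% and 16.1% of the summed rpkM of these kinases in HBE and 3.26% in A549.

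**Figure D2:**
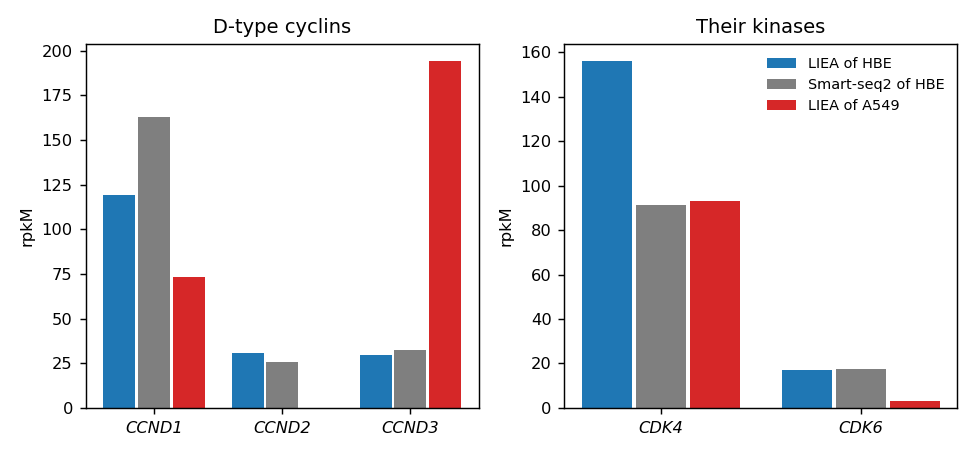
Level in rpkM (vertical axes, from 0) of the D-type cyclins (left) and of CDK4 and CDK6 (right) in LIEA of HBE, Smart-seq2 of HBE and LIEA of A549, 1 library each and without error bars. CCND3 was the highest D-type cyclin in A549 at 194 rpkM and CCND1 in the HBE libraries at 119 and 163 rpkM, CCND2 has no bar in A549, where it had no row, and CDK6 was at 3.14 rpkM in A549 against 17.1 and 17.6 rpkM in HBE.

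RB1, the substrate of these kinases, lies at chr13:48877880-49173572 on the plus strand. Its reads were 141 in HBE by LIEA, 78 in A549 by LIEA and 761 in HBE by Smart-seq2, which are 6.42 rpkM (log2 2.68), 3.93 rpkM (1.98) and 16.2 rpkM (4.02). The Smart-seq2 library was the highest and A549 the lowest. By LIEA, A549 and HBE differed by -0.71 (-1.12 to -0.30), an interval that reaches past 2-fold. RB1 made up 25.5% of the summed rpkM of RB1, RBL1 and RBL2 in LIEA of HBE, 19.6% in A549 and 46.4% in Smart-seq2 of HBE. RBL2 was the highest of this family in both LIEA libraries, with 13 and 12.3 rpkM, while RB1 was the highest in Smart-seq2.

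CDKN1A encodes p21, an inhibitor of cyclin-dependent kinases that p53 induces, and lies at chr6:36644237-36655114 on the plus strand. It had 837 reads in HBE by LIEA, 866 in A549 by LIEA and 1595 in HBE by Smart-seq2, which are 78.6 rpkM (73.4 to 84.1), 90.2 rpkM (84.3 to 96.4) and 70.1 rpkM (66.7 to 73.6). It was the most even of the members, above the 90th percentile in each library. A549 was above HBE by LIEA by 0.20 on the log2 scale (0.06 to 0.34). The direction holds under the other scalings, but by TPM the difference was 0.04. Among CDKN1A, CDKN1B, CDKN1C, CDKN2C and CDKN2D, the inhibitors with a value, CDKN1A made up 80% of the summed rpkM in LIEA of HBE, 73.8% in A549 and 83.2% in Smart-seq2 of HBE.

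MDM2, the ubiquitin ligase of p53 and also a p53 target gene, lies at chr12:69201957-69239324 on the plus strand. Its reads were 428 in HBE by LIEA, 294 in A549 by LIEA and 1954 in HBE by Smart-seq2, which are 12.4, 9.44 and 26.5 rpkM. The Smart-seq2 library was the highest, and A549 was the lowest. By LIEA, A549 and HBE differed by -0.39 (-0.61 to -0.18), less than 2-fold. The ratio of CDKN1A to MDM2 in rpkM was 6.34 (5.64 to 7.14) in LIEA of HBE, 9.55 (8.36 to 10.9) in A549 and 2.65 (2.48 to 2.83) in Smart-seq2 of HBE. Of the 42-nt words of MDM2, 7.71% occur in other genes on the same strand and 12.8% on the opposite strand.

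**Figure D3:**
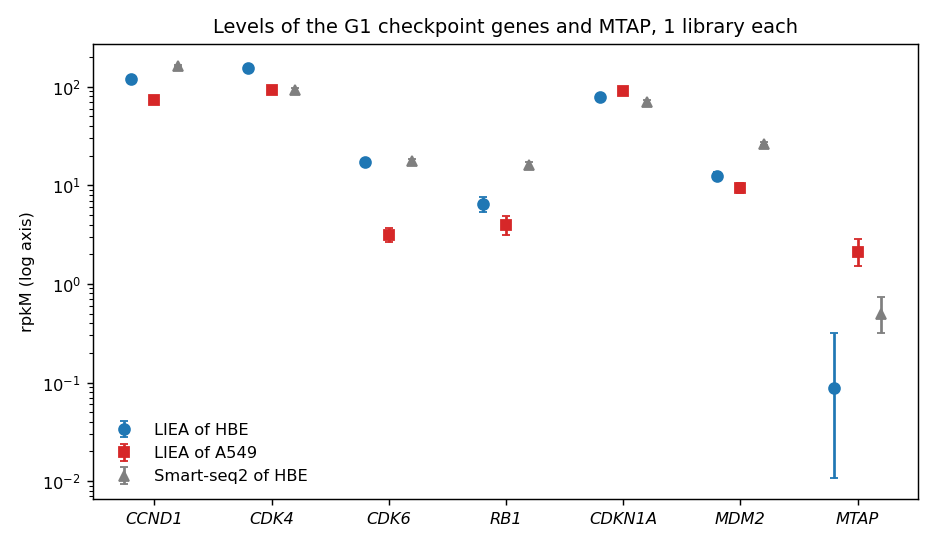
Level in rpkM (vertical axis, log scale) of the 7 members with a value in the 3 libraries, with 95% counting intervals. A549 is below both HBE libraries for CCND1, CDK6, RB1 and MDM2 and above both for CDKN1A and MTAP, and CDK6 is the member for which the HBE libraries almost coincide while A549 lies far below.

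Against both HBE libraries, A549 was above both for 2 of the 7 members, CDKN1A and MTAP, and below both for 4, CCND1, CDK6, RB1 and MDM2. Over all 14461 genes with at least 10 reads in some library, A549 was above both HBE libraries for 33.2% and below both for 37.6%. In both LIEA libraries, 11239 genes were listed with at least 10 reads, and their median difference was -0.16. Relative to that median, the differences of CCND1 and CDK4 were -0.54 and -0.58.

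The other genes of the pathway were compared by lists, whose counts stand beside 20.4% of all genes at least 2-fold higher and 20.9% at least 2-fold lower in A549, and an all-gene median of -0.13. Of 7 inhibitors of cyclin-dependent kinases, 4 could be compared between the lines by LIEA, and none differed by at least 2-fold. CDKN1B, which encodes p27, had 113 reads in HBE by LIEA, 225 in HBE by Smart-seq2 and 190 in A549, with log2 rpkM of 3.28, 3.18 and 4.18. CDKN2C, which encodes p18, a relative of p16, had 48, 49 and 77 reads with log2 rpkM of 2.32, 1.25 and 3.15. For all 4 compared inhibitors A549 was above both HBE libraries, against 33.2% of all genes, and their median difference by LIEA was 0.54. For CDKN2D the difference by LIEA, 0.26 (-0.57 to 1.08), was within counting error, and that of CDKN1A was 0.04 by TPM. CDKN1C, with 4 reads in HBE by LIEA and 1 in A549, was too low to compare and pointed the other way.

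Of 22 G1 cyclins, kinases and their regulators, 9 were at least 2-fold lower in A549 (40.9%, against 20.9% of all genes) and 1 was higher (4.55%, against 20.4%), with a median of -0.82. The gene that was higher was CCND3. Beside CCND2 and CDK6, the lower ones included SKP2, the ubiquitin ligase subunit that targets p27, with 453 reads in HBE by LIEA, 1262 in HBE by Smart-seq2 and 42 in A549. Its difference by LIEA was -3.28. CDC25A, the phosphatase that activates CDK2, had 262, 193 and 33 reads in the same order and a difference of -2.84. The others were CCNE2 (-2.79), CDK7 (-1.42), CDK2 (-1.19), FBXW7 (-1.19) and AMBRA1 (-1.14). FBXW7 and AMBRA1, like SKP2, are ubiquitin ligase subunits. The list was not split into genes that promote G1 and genes that restrain it, so its median gives no direction for G1 itself. A549 was below both HBE libraries for 15 of the 22 genes (68.2%, against 37.6% of all genes).

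Of 18 genes of the RB and E2F family and the complexes they form, 2 were at least 2-fold higher in A549 and 2 lower, 11.1% each way and below the shares of all genes (20.4% and 20.9%), with a median of -0.16. LIN37, a subunit of the DREAM complex, had 25 reads in HBE by LIEA, 31 in HBE by Smart-seq2 and 101 in A549, a difference of 2.16 by LIEA. TFDP1, the dimer partner of the E2F factors, had 1133, 1371 and 351 reads and a difference of -1.54. E2F1 had log2 rpkM of 4.84 in LIEA of HBE and 4.86 in A549, but 2.28 in Smart-seq2 of HBE.

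Of 24 E2F target genes, 9 were at least 2-fold lower in A549 (37.5%, against 20.9% of all genes) and none was at least 2-fold higher (against 20.4%), with a median of -0.43. Among them were RRM1, a subunit of ribonucleotide reductase (-1.96), MCM3, of the replicative helicase (-1.46), and CCNA2, cyclin A2 (-1.33). Genes of this list also stand in other lists, among them CDC25A, CHEK1 and E2F1. PCNA, the sliding clamp of DNA polymerases, had the highest difference of the list, 0.96, with 718 reads in HBE and 1264 in A549 by LIEA.

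Of 22 regulators of p53, 3 were at least 2-fold lower in A549 and none was higher, with a median of -0.32. The share that was lower, 13.6%, was below the 20.9% of all genes. The checkpoint kinases CHEK1 (-1.08) and ATR (-1.03) were among these. Of 32 p53 target genes, 5 were at least 2-fold higher and 5 lower, 15.6% each way and below the shares of all genes (20.4% and 20.9%), with a median of 0.10 that was -0.06 by TPM. TP53I3, a quinone oxidoreductase, had 119 reads in HBE by LIEA, 273 in HBE by Smart-seq2 and 563 in A549 and a difference of 2.39. GDF15, a secreted stress factor, had 489, 2350 and 1357 reads (1.62), and its log2 rpkM of 6.47, 7.64 and 8.09 were highest in A549. AEN, a nuclease, differed by 1.20. TRIM22, with 214, 453 and 5 reads (-5.27), SESN1 (-2.22), BTG2 (-1.81) and POLH (-1.08) were lower. CDKN1A and MDM2, members of this list, lay near its middle.

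The 19 genes of methionine salvage, to which MTAP belongs, and of the PRMT5 methyltransferase complex had a median of -0.43. At least 2-fold higher in A549 was 1 (5.26%, against 20.4% of all genes). At least 2-fold lower were 5 (26.3%, near the 20.9% of all genes). The gene that was higher was MTAP, which rests on 43 reads in A549 and 2 in HBE by LIEA. CLNS1A (-1.44) and WDR77 (-1.14), partners of PRMT5, MRI1 (-1.16), the isomerase that follows MTAP in the pathway, and AMD1 (-1.11), of polyamine synthesis, were lower. PRMT5 itself had 600 reads in LIEA of HBE and 508 in A549, a difference of -0.09. Of the 25 genes listed for 9p21, which overlap the neighbours of CDKN2A given above, 11 were compared, with a median of 0.90. At least 2-fold higher in A549 were 4 (36.4%, against 20.4% of all genes) and lower was 1 (9.09%, against 20.9%). Among the higher ones were MTAP, with 2 reads in HBE by LIEA, and TUSC1, without a row there.

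**Figure D4:**
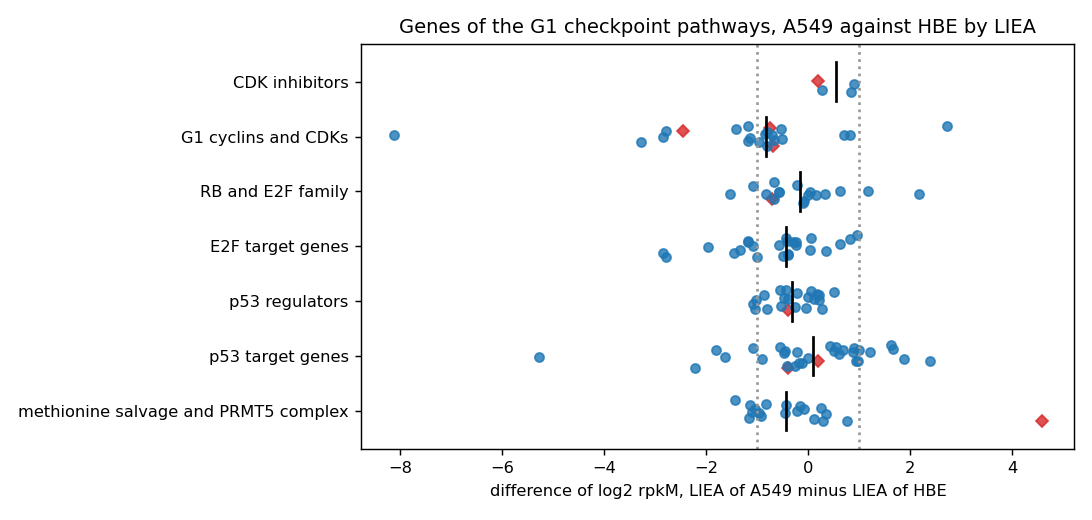
Difference of log2 rpkM between A549 and HBE by LIEA (horizontal axis) for the genes of 7 lists (vertical axis), each point a gene, red diamonds the members, black bars the median of the list and dotted lines 2-fold. Points are spread vertically within a list for legibility and some genes stand in more than 1 list. The median of the G1 cyclins and CDKs is at -0.82 and that of the CDK inhibitors at 0.54, and CCND2, at -8.12, is a bound.

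The HBE libraries allow the members to be compared between the methods. None of the 7 was at least 2-fold higher by LIEA and 3 were at least 2-fold lower, while of the 13492 genes compared 28.4% were higher and 22.3% lower. The 3 members were RB1, with a difference of -1.34 (-1.61 to -1.08), MDM2, with -1.09 (-1.25 to -0.94), and MTAP, with -2.49 (-5.61 to -0.48). The call of MDM2 ended under TPM scaling, where its difference was -0.90, and that of MTAP with log2(rpkM + 1), where it was -0.46. CDK4 differed by 0.77 (0.67 to 0.87), CCND1 by -0.45 (-0.52 to -0.39), CDKN1A by 0.17 (0.04 to 0.29) and CDK6 by -0.04 (-0.15 to 0.08). The sign of CDK6 turned under TPM scaling, where it was 0.16. Both comparisons share the LIEA library of HBE. For MDM2 the difference between the methods, -1.09, stood beside -0.39 between the lines, for RB1 -1.34 beside -0.71, for CDK4 0.77 beside -0.75 and for CDK6 -0.04 beside -2.45.

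The GC content of the transcript moved with the difference between the methods. Over all genes, the median difference of LIEA from Smart-seq2 was -0.70 for 2338 transcripts under 40% GC, -0.17 for 5064 between 40% and 50%, 0.53 for 3919 between 50% and 60%, and 1.11 for 1774 above. The members that were lower by LIEA had low GC, with 37.1% for RB1, 39.1% for MTAP and 39.5% for MDM2. CDK6, at 39.7%, had no such difference. CDK4 and CDKN1A, which were higher by LIEA, had 52% and 58.1%, and CCND1, which was lower, 50.3%. The part of GC content in the members' differences was not tested.

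**Figure D5:**
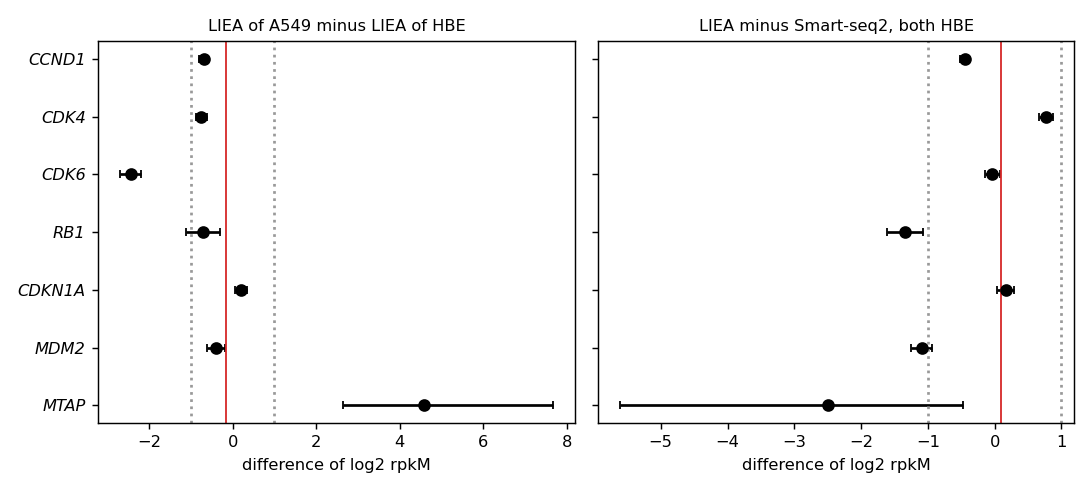
Differences of log2 rpkM (horizontal axes) of the 7 members with a value (vertical axis), between A549 and HBE by LIEA (left) and between LIEA and Smart-seq2 in HBE (right). Bars are 95% counting intervals, dotted lines mark 2-fold and the red line is the median of genes with at least 10 reads in both libraries, at -0.16 and 0.10. CDK6 at -2.45 and MTAP at 4.58 lie past 2-fold on the left, and RB1, MDM2 and MTAP on the right.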

How the data were processed

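Values were analysed from 3 libraries of human cell lines, grouped by cell line and library construction as given in the labels. The authors kept Ion Torrent reads longer than 42 nt and used FANSe2 for mapping against RefSeq-RNA. They allowed 3 errors in Ion Torrent reads and 2 in Illumina reads, and joined the splice variants of each gene. They deposited log2 rpkM per gene, without a pseudocount, and no row held a gene at 0. The labels name hg19. The version of FANSe2 is not given in the sources used here.

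Since rpkM is reads divided by transcript length and total, reads, lengths and totals were recovered from the values. At the totals, 88% of 300 genes gave whole lengths (70% were required). All values of the 18856 genes gave whole reads within 0.001 reads. Lengths were accepted only where the reads were whole within a tolerance, so this is not a separate check of the reads. A gene's reads and length share a whole factor, chosen from 1 to 12 by the annotated lengths, which was above 1 for 937 genes. The recovered reads sum to between 95.9% and 96.5% of the totals. The recovery and comparison steps were tested on simulated data. The floor of 3 reads is 0.651 reads per 1000000 mapped reads in HBE by LIEA, 0.722 in A549 by LIEA and 0.305 in HBE by Smart-seq2. In each library 4 rows with date-like names that occurred more than once were left out, and so were 1589 blank rows of the Smart-seq2 library.

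Genes with at least 10 reads in 1 of the compared libraries were compared by the difference of log2 rpkM, with unlisted genes set at 3 reads, and a difference of 1 (2-fold) was the threshold. Poisson intervals were used for levels and conditional binomial intervals for ratios. Positions, GC content and shared 42-nt words came from GENCODE release 44 on GRCh37, the build named hg19, and 94% of the genes matched. The 9 members and the lists were chosen with earlier results of these data known, and 1 gene of the p53 regulators is not reported here. Named beside the members were, from each list, up to 4 genes per direction with at least 2-fold difference and 100 reads in 1 LIEA library, and the genes within 10 Mb of CDKN2A with at least 10 reads. Outside this rule, named after their values were seen, are CDKN1B, CDKN2C, CDKN1C, CDKN2D, RBL1, RBL2, E2F1, PCNA, PRMT5, TSPAN31, DMRTA1 and KRT14. So are CCNE2, CDK2, CDK7, FBXW7, AMBRA1 and the regulators of p53 in the closing section. Alternatives were TPM scaling, centring on the median gene, log2(rpkM + 1), other read and rpkM filters, other fold thresholds and the smallest whole reads. Python 3.11.15, numpy 2.4.6, scipy 1.17.1 and matplotlib 3.10.9 were used.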

Additional observations from a re-analysis of the deposited data

How the results depend on the processing

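No paired analysis was possible because each group had 1 library. Of 231 values under an alternative, 22 moved. The other 209 stayed within their interval (of counting, or over genes for the median of a list) or within 1.5 times the count. Among the 209 are the values by the smallest whole reads. These repeat the main values, since every member had a factor of 1, and could not move. No difference of at least 2-fold changed sign. The sign of 5 small values turned, that of CDK6 between the methods and those of 4 medians of lists. Between the lines, the p53 target genes went from 0.10 to -0.06 by TPM. Between the methods, the G1 cyclins and CDKs went from -0.09 to 0.11 and the RB and E2F family from -0.03 to 0.17 by TPM, and the 9p21 genes from 0.05 to -0.04 by centring. Scaling and centring shift all genes alike, by at most 0.20 on the log2 scale, so they could not turn a 2-fold difference. Between A549 and HBE by LIEA, TPM scaling gave 0.04 for CDKN1A, -0.90 for CDK4 and -0.86 for CCND1, and centring on the median gene gave 0.36, -0.58 and -0.54, and -0.66 for the median of the G1 cyclins and CDKs. With log2(rpkM + 1), MTAP was at 1.51 and CDK6 at -2.13. A threshold of 4-fold left 1513 genes higher and 1064 lower in A549, and one of 1.5-fold gave 4577 lower. Between LIEA and Smart-seq2, TPM scaling gave 0.36 for CDKN1A, -0.90 for MDM2, 0.97 for CDK4, 0.16 for CDK6 and -0.25 for CCND1, and centring gave -0.55 for CCND1. With log2(rpkM + 1), MTAP was at -0.46, so its call ended. A threshold of 4-fold left 2003 genes higher and 823 lower by LIEA, and without a filter on reads 5952 were higher. Depth limits MTAP most, with 2 reads in LIEA of HBE.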

Other observations

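Among 22 regulators of p53, 3 differed by at least 2-fold between the lines by LIEA. Of the same genes, 10 were at least 2-fold higher and 4 at least 2-fold lower by LIEA than by Smart-seq2 in HBE, with a median difference of 0.35. These are 45.5% and 18.2%, against 28.4% and 22.3% of all genes in this comparison. TRIM28, a corepressor, had log2 rpkM of 9.04 in HBE by LIEA, 8.57 in A549 by LIEA and 5.19 in HBE by Smart-seq2. HUWE1, a large ubiquitin ligase, had 5.53, 5.64 and 2.26 in the same order, and EP300, an acetyltransferase, 3.69, 3.90 and 1.58. For these genes the LIEA libraries of different lines lay closer together than the libraries of HBE made by different methods. They were named after their values were seen, so this follows from the choice and does not describe the list. CHEK1, of the same list, went the other way, with -1.08 between the lines and -0.20 between the methods.

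The other lists are given beside the same all-gene shares, 28.4% higher and 22.3% lower by LIEA, and an all-gene median of 0.04. Of the p53 target genes, 3 of 32 were at least 2-fold higher by LIEA and 9 lower, with a median of -0.29. Of the E2F target genes, 6 of 24 were higher and 3 lower (median 0.50), and of the RB and E2F family 3 of 18 were higher and 3 lower (-0.03, 0.17 by TPM). Of the G1 cyclins and CDKs, 4 of 22 were higher and 5 lower (-0.09, 0.11 by TPM), and of the CDK inhibitors 1 of 4 was higher and none lower (0.40). Of the genes of methionine salvage and the PRMT5 complex, 1 of 19 was higher and 6 were lower (-0.38), and of the 9p21 genes 2 of 9 were higher and 2 lower (0.05, -0.04 centred). Of the epithelial markers none of 6 was higher and 3 were lower (-0.65), of the basal markers 1 of 4 was higher and 2 were lower (-0.85), and of the markers of other cells 2 of 3 were higher and 1 was lower (1.35).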
